A study of Mus musculus with 4 samples.

Results

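The genes described here are 40 members of the TGF-beta superfamily pathway in the mouse: 12 ligand genes, 10 receptor genes, 7 Smad genes and 11 genes for extracellular and intracellular regulators. They were taken from a list of symbols that was chosen with earlier results of these data known. All 40 were found among the 21883 protein-coding genes of the RefSeq annotation. For each gene, every peak was collected that touched the gene or the 10 kb beyond either end. This gave 98 Slug peaks and 102 Snail peaks, none of them counted for 2 members.

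The peaks come from chromatin immunoprecipitation followed by sequencing (ChIP-seq), which recovers DNA bound by a chosen protein. Slug (gene Snai2) was mapped in pBl.1G, an epithelial breast cancer line with high Slug, and Snail (gene Snai1) in pBl.3G cells, which are mesenchymal and express much Snail. Both lines are untreated and derive from MMTV-PyMT mice, whose mammary tumours are driven by the polyoma middle T oncogene under a viral promoter. Each factor has 1 ChIP library and each line 1 input DNA library, so no difference below has a replicate check or a test. Factor, line and antibody differ together and cannot be told apart, and the antibody used in pBl.3G is labelled as recognising Snail and Slug alike. The study asked why the 2 factors differ in driving the epithelial-mesenchymal transition (EMT). Peak lists hold no expression, so the labelled cell types could not be checked against markers.

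Ligands of this superfamily bind pairs of type I and type II receptor kinases, which phosphorylate receptor-regulated Smads. TGF-beta and activin signals pass mainly through Smad2 and Smad3, and bone morphogenetic protein (BMP) signals through Smad1 and Smad5. Both kinds of Smad join Smad4 and enter the nucleus, while Smad6 and Smad7 inhibit the pathway. TGF-beta is a classical inducer of EMT in mammary epithelium, and Snail and Slug are among the factors it induces. Both are zinc finger proteins known mainly as repressors that bind the E-box CAGGTG.

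The 5 stretches of 250 bases upstream of an annotated start site printed here show the 2 kinds of gene start met below, with and without a Snail peak. They are RefSeq sequence of GRCm38.p6, to which mm10 corresponds, and run 5′ to 3′ on the gene's strand. Capitals mark the E-box, CAGGTG or its reverse complement CACCTG, and a stretch without capitals holds none.
Bmp6, chr13:38345466-38345715, plus strand: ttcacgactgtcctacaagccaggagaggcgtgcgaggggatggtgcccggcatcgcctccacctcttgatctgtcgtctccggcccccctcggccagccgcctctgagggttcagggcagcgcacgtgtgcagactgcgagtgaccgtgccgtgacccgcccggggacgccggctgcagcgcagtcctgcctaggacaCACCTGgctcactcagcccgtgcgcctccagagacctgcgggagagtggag
Bmp4, chr14:46390670-46390919, minus strand: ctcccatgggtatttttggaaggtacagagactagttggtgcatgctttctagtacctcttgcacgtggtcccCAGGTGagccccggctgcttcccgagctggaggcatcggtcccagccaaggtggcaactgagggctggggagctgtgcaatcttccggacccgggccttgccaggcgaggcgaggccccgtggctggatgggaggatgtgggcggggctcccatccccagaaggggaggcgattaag
Bmpr1b, chr3:141982265-141982514, minus strand: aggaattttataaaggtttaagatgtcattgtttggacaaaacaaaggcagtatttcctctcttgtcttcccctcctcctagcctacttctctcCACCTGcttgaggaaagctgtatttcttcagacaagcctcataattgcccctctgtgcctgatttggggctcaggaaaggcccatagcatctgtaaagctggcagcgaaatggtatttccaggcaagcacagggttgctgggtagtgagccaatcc
Tgfbr1, chr4:47352972-47353221, plus strand: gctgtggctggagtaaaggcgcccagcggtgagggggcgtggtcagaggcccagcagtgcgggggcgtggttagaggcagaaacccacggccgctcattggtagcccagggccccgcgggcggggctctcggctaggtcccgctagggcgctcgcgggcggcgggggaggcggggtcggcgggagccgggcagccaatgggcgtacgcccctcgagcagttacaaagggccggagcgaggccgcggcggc
Bmpr2, chr1:59764029-59764278, plus strand: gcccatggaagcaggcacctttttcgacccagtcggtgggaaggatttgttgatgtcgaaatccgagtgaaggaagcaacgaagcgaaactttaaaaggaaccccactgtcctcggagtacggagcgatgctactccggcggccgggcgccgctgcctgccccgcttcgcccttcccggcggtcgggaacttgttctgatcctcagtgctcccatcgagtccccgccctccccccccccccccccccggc
The Bmp6 E-box, at chr13:38345665-38345670, begins 51 bases before the start site and lies inside a Snail peak with a score of 183. Bmp4 and Bmpr1b carry an E-box in this window but no peak of either factor touches it. The windows of Tgfbr1 and Bmpr2 lie wholly inside Snail peaks with scores of 1280 and 1459 and hold no E-box.

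Start sites were at hand for 28 of the 40 members (not for Tgfb3, Bmp1, Bmp2, Bmp7, Tgfbr3, Smad2, Smad4, Smad7, Skil, Bambi, Nog and Fst), with 39 windows that run from 250 bases before to 50 bases after each start. An E-box lay in 5 of these 39 windows (12.8%), against 19.7% of 21262 windows of all protein-coding genes. The 5 windows belong to 4 genes, Bmp6, Bmp4, Bmpr1b and Gdf15, the last with 2 start sites. A Snail peak touched 26 member windows, and only that of Bmp6 held an E-box. Among the 13 other member windows 4 did. Over all genes, 16.7% of windows touched by a Snail peak and 22.6% of the others held the E-box, with a median GC content of 62.3% and 49.7%. Windows touched by a Slug peak held it in 39.4% of 845 cases, against 18.9% of the rest. Only 1 member window was touched by a Slug peak, that of the start site of Smad5 farthest along the gene, and it held no E-box. The part of GC content in these shares was not tested.

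Of the 40 members, Slug was found in the gene or within 10 kb at 32 (80.0%) and Snail at 37 (92.5%). Over all protein-coding genes the shares were 56.4% and 66.9%. Both factors had a peak at 29 members (72.5%, against 44.9% of all genes). Slug alone was found at 3 members, 7.50% against 11.5%, and Snail alone at 8, 20% against 22.1%. Neither of these orders held in every setting: with peaks scoring at least 100 Slug alone was at 15% of members against 8.39% of all genes, and within 1 kb of an end Snail alone was at 67.5% against 41.5%. No member lacked both, while 21.6% of all genes did. The members are long, with a median length of 61.4 kb against 17.2 kb. Over all genes the share with a Slug peak rose with length, from 36.0% under 10 kb to 94.4% at 100 kb or more. The Snail share was 49.8% under 10 kb, 80.4% at 50 to 100 kb and 78.0% at 100 kb or more.

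**Figure D1:**
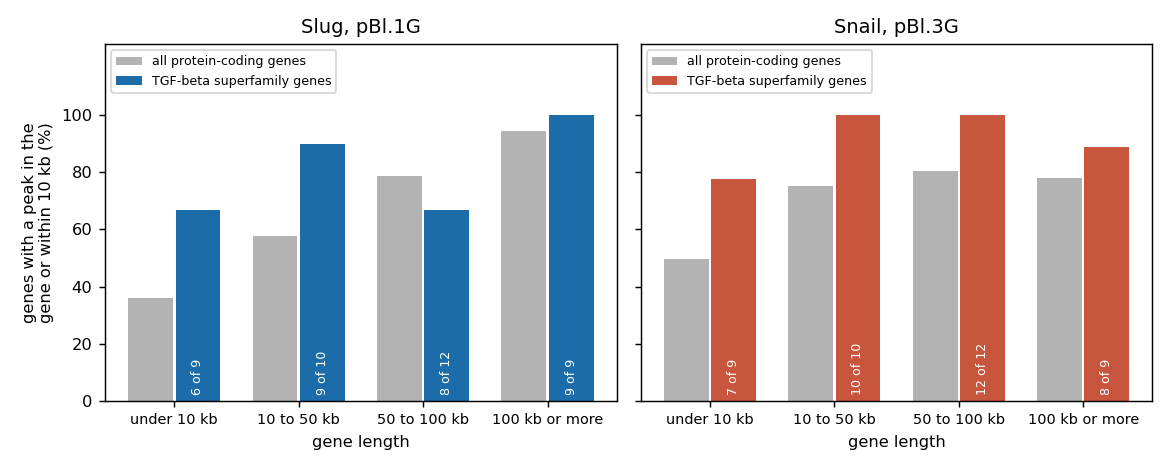
Share of genes with a Slug peak (left) or a Snail peak (right) in the gene or within 10 kb, in percent, by gene length. Grey bars are all protein-coding genes and coloured bars the 40 members, with counts written in the bars. In the class of 50 to 100 kb the Slug share of the members (66.7%) lies below that of all genes (78.8%).

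Shares at equal length were therefore compared as well. When the all-gene shares were weighted by the members' lengths, in 4 classes, they became 67.4% for Slug, 71.7% for Snail and 54.2% for both, each below the members' share. Among the 9 members under 10 kb, Slug was found at 6 (66.7%, against 36.0% of all genes of that length) and Snail at 7 (77.8% against 49.8%). Of the 10 members from 10 to 50 kb, 9 had a Slug peak, against 57.8%, and all 10 a Snail peak, against 75.2%. Of 12 members between 50 and 100 kb, 8 had a Slug peak (66.7%), below the 78.8% of all such genes, and all 12 a Snail peak, against 80.4%. All 9 members of 100 kb or more had a Slug peak, as did 94.4% of genes that long, and 8 had a Snail peak (88.9% against 78.0%). Per length of window, members held 26.5 Slug and 27.5 Snail peaks per Mb, against 19.7 and 21.8 over the windows of all protein-coding genes.

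The 2 factors lay at different places in these genes. Of the 102 Snail peaks 42 (41.2%, 95% Wilson interval 32.1 to 50.9) reached within 1 kb of an end of their gene, and of the 98 Slug peaks 10 did (10.2%, 5.64 to 17.8). Over all gene windows, a peak near several genes counting for each, the shares were 41.9% and 10.7%, both inside the members' intervals. Counted by gene, 33 members (82.5%) had Snail this close to an end, against 51.3% of all genes. For Slug it was 9 members (22.5%, against 13.0%). Most Slug peaks, 66 of 98, lay deeper inside the gene and 22 in the flanks. These last counts have no all-gene value beside them, and the members are long (median 61.4 kb against 17.2 kb). The part of gene length in them was not tested.

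At the 28 members with known start sites the start itself could be examined. A Snail peak covered a start site in 19 of them (67.9%, against 49.9% of 17491 genes). A Slug peak covered none, and did so in 2.42% of all genes. The median distance from a peak's midpoint to the nearest start site was 30.9 kb for 74 Slug peaks and 7.80 kb for 78 Snail peaks. These distances were not computed over all genes. Snail peaks in member windows are wider, with a median of 776 bp against 211 bp for Slug, and so reach a given base more readily. That width was not separated from position here.

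**Figure D2:**
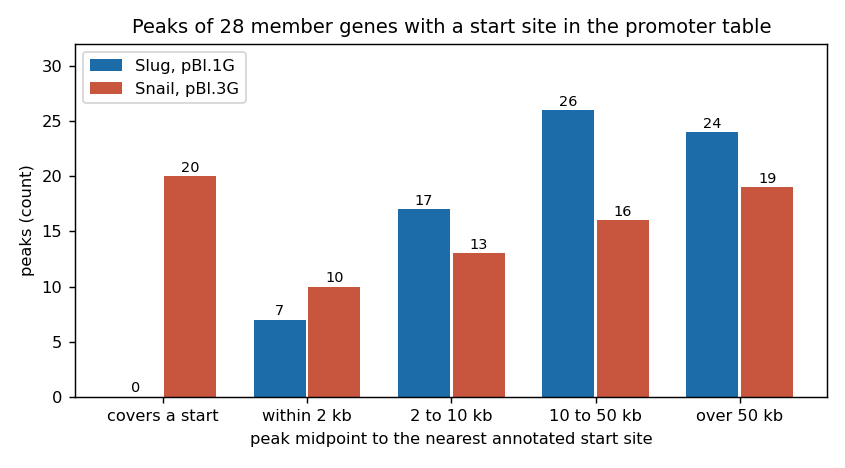
Number of Slug and Snail peaks of the 28 members with a start site at hand, by distance of the peak midpoint from the nearest start site in kb. The first pair of bars counts peaks that cover a start site (0 Slug and 20 Snail peaks), which are left out of the other bars.

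The score attached to each peak is that of the authors' peak caller and was read only within its own list, so Slug and Snail scores given side by side do not compare strength. The lowest score was 50 in both lists. In member windows the median Slug score was 96.1, against 83.5 in all gene windows, and 17 of the 98 peaks (17.3%) belonged to the highest-scoring 10% of the Slug list, against 10.6% in all windows. The Snail list showed the opposite. Its median score was 131 in member windows and 270 in all windows, and 5 of the 102 peaks (4.90%) were in the highest-scoring 10%, against 13.9%. These all-window values count a peak once for each gene near it. With each peak of the whole list counted once, the median score was 151 for Snail and 81.1 for Slug, so the Snail medians lie much closer. Snail peaks at an end of a member had a median score of 365, against 611 at the ends of all genes, and those inside members had 83.2. At 30 of the 37 members with a Snail peak the highest-scoring one lay at an end (81.1%, against 62.0% of 14644 genes with a Snail peak). At 4 of the 32 members with a Slug peak, Bmp5, Bmp7, Gdf15 and Fst, it did (12.5%, against 14.2% of 12334 genes).

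**Figure D3:**
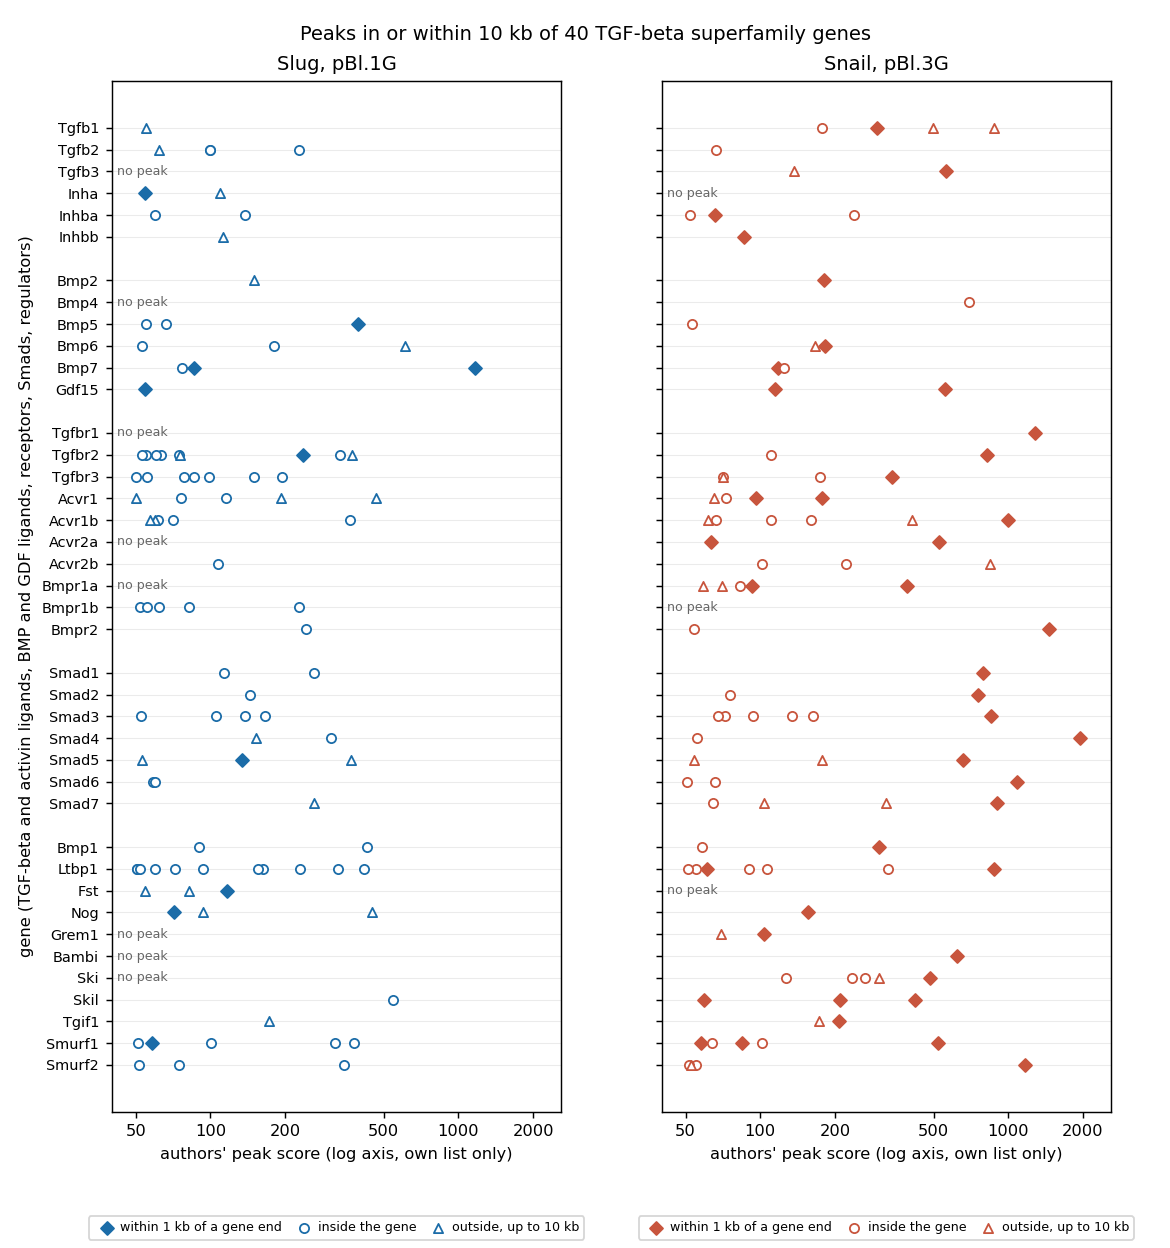
Score of every Slug peak (left) and Snail peak (right) of the 40 members, on a log axis that compares only within a list. Filled diamonds lie within 1 kb of a gene end, circles inside the gene and triangles in the flanks, and "no peak" marks the 8 members without Slug and the 3 without Snail. The highest-scoring Snail peaks are mostly diamonds and the highest-scoring Slug peaks mostly are not.

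Among the 12 ligand genes, 9 had peaks of both factors, Inha only Slug, and Tgfb3 and Bmp4 only Snail. Over all protein-coding genes 44.9% had both, and 47.9% of those of 10 to 50 kb, the class of the ligands' median length (20.2 kb). The ligands held 21 Slug and 20 Snail peaks. Tgfb1, the most widely expressed TGF-beta isoform, had 4 Snail peaks with scores of 178, 296, 498 and 876. The one with a score of 296, at chr7:25686867-25688466, covered its start site. The peaks with scores of 876 and 498 had their midpoints inside the neighbouring genes B9d2 and Ccdc97. Its single Slug peak, at 54.9, was near the lowest accepted score and lay 7.21 kb outside.

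Tgfb2 showed the reverse arrangement. Slug gave 4 peaks, of 62.2, 99.2, 99.3 and 227, and Snail 1 of 66.5, inside the gene and 78.2 kb from the start. The highest Slug peak, chr1:186705256-186705398, was centred 0.662 kb downstream of the start site. Tgfb3 had no Slug peak and 2 Snail peaks, of 137 and 563, the second spanning its high-coordinate end. Its nearest Slug peak, 14.9 kb away, scored 245.

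The activin and inhibin subunit genes had low to moderate scores in both lists. Inhba, the subunit of activin A, had 2 Slug peaks, of 59.6 and 137, and 3 Snail peaks, of 52.2, 65.6 and 239. The last covered the start site, which lies inside the annotated span. Inhbb had a Slug peak of 113 in its flank and a Snail peak of 86.4 over its start. Inha, the inhibin alpha subunit, had Slug peaks of 54.5 and 110 upstream of its start and no Snail peak within 10 kb. One of 489 lay just beyond the limit, at 10.6 kb.

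The genes Bmp5, Bmp6 and Bmp7 carried the highest Slug scores of the ligands. Bmp7 had Slug peaks of 76.6, 86.2 and 1167, and the last, chr2:172868929-172869443, lay 0.917 kb inside the low-coordinate end, among the top 0.409% of the Slug list. Its Snail peaks scored 118 and 125, and the first covered the opposite end. Bmp6 had Slug peaks of 53.0, 181 and 609, the highest of them 7.01 kb upstream of the gene at chr13:38338071-38338707. Bmp5 had Slug peaks of 55.2, 66.0 and 392, and the highest, chr9:75899692-75899920, lay at the end opposite its start. Its 1 Snail peak, inside the gene, scored 53.0.

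The other BMP and GDF ligand genes had at most 1 Slug peak each. Bmp4 had 1 Snail peak, 695, at chr14:46386966-46388066, inside the gene and 2.60 kb from its start, and its nearest Slug peak was 73.9 kb away. Bmp2 had a Snail peak of 181 at its low-coordinate end and a Slug peak of 150 beyond the other end. Gdf15, a stress-induced divergent member of the family, had Snail peaks of 115 and 555 and a Slug peak of 54.4 inside the latter.

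The 10 receptor genes held 33 Slug and 29 Snail peaks. Both factors were found at 6, Snail alone at Tgfbr1, Acvr2a and Bmpr1a, and Slug alone at Bmpr1b. Both were found at 44.9% of all protein-coding genes and 65.6% of those of 50 to 100 kb, the class of the receptors' median length (90.8 kb). Snail peaks covered a start site of Tgfbr1, Tgfbr2, Acvr1, Acvr1b, Acvr2a, Bmpr1a and Bmpr2. Those of Bmpr1b and Acvr2b were not covered, and for Tgfbr3 no start site was at hand.

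The 2 signalling receptors for TGF-beta differed in their Slug peaks. Tgfbr1, the type I receptor, had 1 Snail peak of 1280 over 1 of its 2 annotated start sites, chr4:47352346-47353923, and no Slug peak, the nearest (score 128) lying just beyond the limit at 10.6 kb. Tgfbr2, the type II receptor, had 9 Slug peaks, 6 of them inside the gene, with scores from 53.2 to 372. Its Snail peaks scored 110 and 818, and the second, chr9:116173423-116176173, covered the start. A Slug peak of 237 at chr9:116176262-116176496, upstream of the start, ended 89 bp from that Snail peak without touching it. Tgfbr3, the co-receptor betaglycan, had 7 Slug peaks (50.3 to 195), all inside its 183 kb span, and 4 Snail peaks (70.5 to 340).

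The Acvr genes had peaks of both factors, with the exception of Acvr2a. Acvr1b, the type I activin receptor, had 6 Snail peaks, from 61.4 to 1001, of which the highest, chr15:101173484-101174262, covered the start. Its 5 Slug peaks scored 57.0 to 366, and the highest lay 35.4 kb downstream of the start. Acvr1 had 5 Slug peaks (50.3 to 467), and the highest, chr2:58573543-58573826, lay 6.71 kb upstream and also inside the neighbouring gene Upp2. Its 4 Snail peaks scored 65.0 to 178, the one on the start 95.7. Acvr2a had Snail peaks of 63.1 and 525 and no Slug peak within 16.4 kb. Acvr2b had 1 Slug peak of 107 and 3 Snail peaks, of which the highest (846) lay inside the neighbour Exog.

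Of the genes Bmpr2, Bmpr1a and Bmpr1b, 1 had both factors, 1 only Snail and 1 only Slug. Bmpr2, the type II receptor, had the highest Snail score of the receptors, 1459, at chr1:59762249-59764421 over its start, and a Slug peak of 243 inside. Bmpr1a had 5 Snail peaks, of 59.1, 70.4, 83.2, 92.5 and 390, and no Slug peak, the nearest (174) being 10.8 kb away. Bmpr1b, 332 kb long, had 5 Slug peaks, all inside, of 52.2, 55.5, 62.3, 82.0 and 227. It had no Snail peak, and the nearest (484) was 21.8 kb outside.

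**Figure D4:**
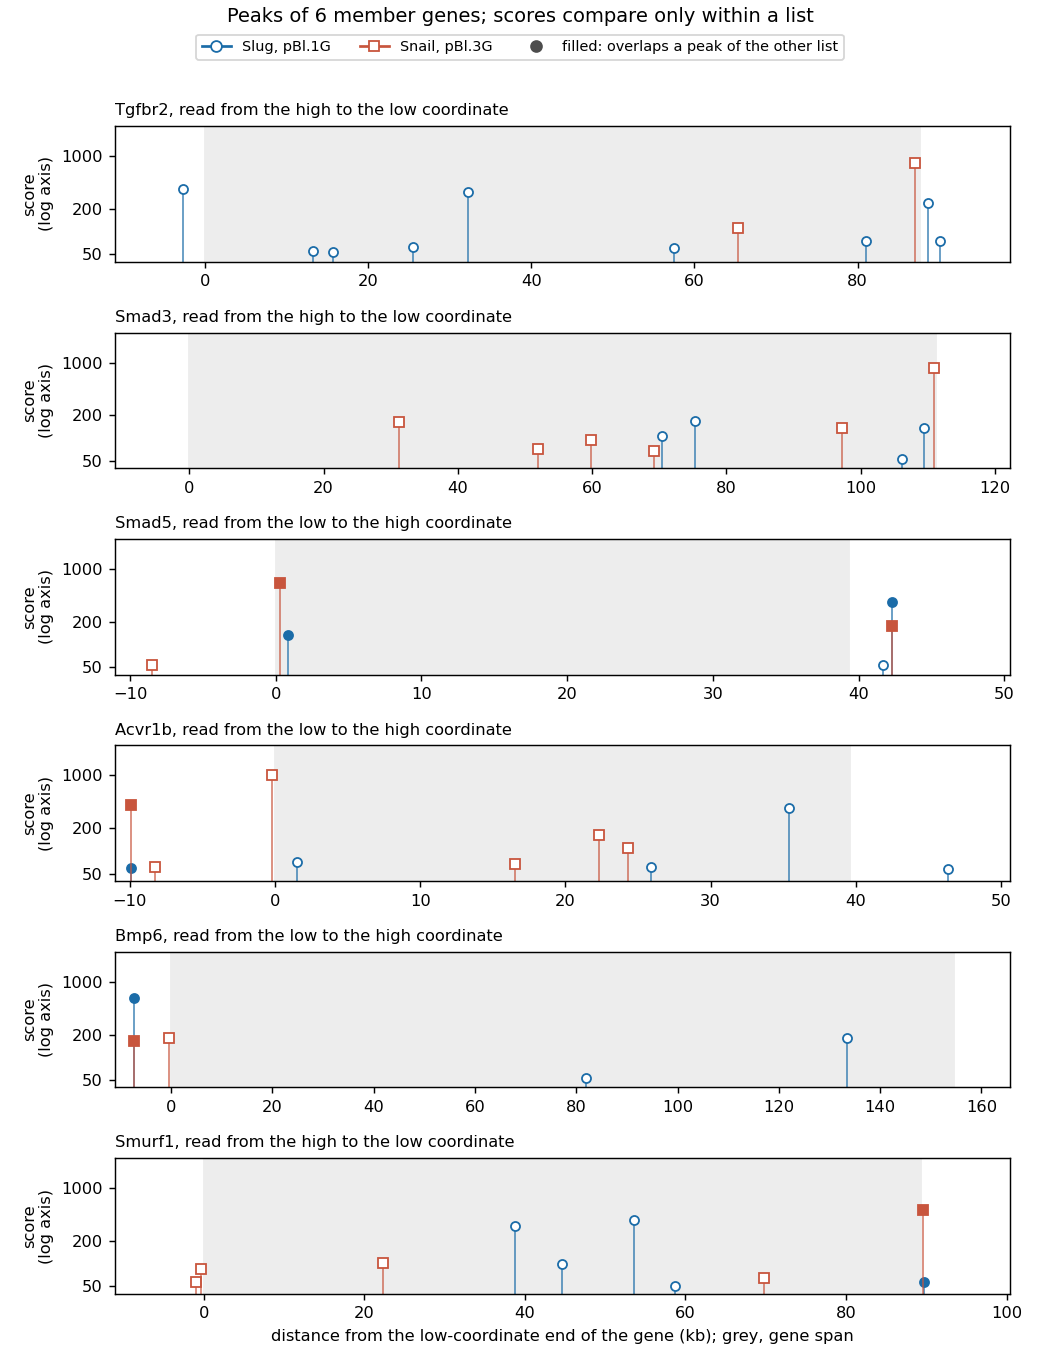
Peaks of Tgfbr2, Smad3, Smad5, Acvr1b, Bmp6 and Smurf1 along each gene, in kb from its low-coordinate end, with the authors' score on a log axis. Grey marks the gene span, and filled symbols overlap a peak of the other list. In Tgfbr2 and Smad3 a tall Snail peak stands at the start of the gene with a Slug peak beside it that does not overlap it.

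All 7 Smad genes had peaks of both factors, 15 Slug and 21 Snail peaks in all. Both were found at 44.9% of all protein-coding genes and 65.6% of those of 50 to 100 kb, the class of the Smads' median length (69.0 kb). Each Smad gene had a Snail peak at one end, with scores of 659 for Smad5, 756 for Smad2, 792 for Smad1, 850 for Smad3, 899 for Smad7, 1090 for Smad6 and 1946 for Smad4. In Smad1, Smad3, Smad5 and Smad6 this peak covered an annotated start site, and for Smad2, Smad4 and Smad7 no start site was at hand. A Slug peak came within 1 kb of an end in Smad5 alone.

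In the receptor-regulated Smads the Slug peaks lay inside the gene. Smad3 had 4, with scores of 52.5, 106, 138 and 166, and 6 Snail peaks, of which 5 scored between 67.5 and 164. The Slug peak of 138, chr9:63756069-63756308, was centred 1.81 kb downstream of the start and ended 168 bp from the edge of the Snail peak of 850. Another, of 106, lay 88 bp from a Snail peak of 67.5. Smad1 had Slug peaks of 113 and 262, the second 19.3 kb inside. Smad2 had 1 of 144 and a second Snail peak of 75.8.

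Smad5 was the exception, with Slug and Snail peaks overlapping at 2 sites. One pair lay at its start, where the Slug peak of 134 (chr13:56703711-56703999) fell inside the Snail peak of 659. The other lay 2.46 kb beyond the far end, where the Slug peak of 368 (chr13:56744840-56745686) fell inside a Snail peak of 178 and filled 91.5% of it. The remaining Slug peak, of 53.0, ended 14 bp from that Snail peak.

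Smad4, the common partner, had a Slug peak of 308 inside the gene and one of 152 in the flank, and a second Snail peak of 55.7. The inhibitory Smad6 had 2 Slug peaks near the lowest accepted score, 58.6 and 59.5, and lesser Snail peaks of 50.6 and 65.8. Smad7, also inhibitory, had a Slug peak of 262 at chr18:75365256-75365585, 1.78 kb outside the gene and 637 bp from the Snail peak of 899. Its other 3 Snail peaks scored 64.7, 104 and 320.

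Of the 11 regulator genes, 7 had both factors, Fst only Slug, and Grem1, Bambi and Ski only Snail. Both were found at 44.9% of all protein-coding genes and 47.9% of those of 10 to 50 kb, the class of the regulators' median length (27.9 kb). Among the secreted antagonists, Nog (noggin, which binds BMPs) had Slug peaks of 71.3, 93.2 and 450 and a Snail peak of 156. The Slug peak of 450, chr11:89291755-89292010, lay 8.63 kb from the gene. Fst (follistatin, which binds activins) had Slug peaks of 54.4, 81.8 and 116, the last 88 bp beyond its high-coordinate end, and the nearest Snail peak was 31.9 kb away. Grem1 (gremlin, a BMP antagonist) had Snail peaks of 69.3 and 104, the second over its start, and its nearest Slug peak was 11.7 kb away.

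The genes Ltbp1, Bmp1 (46.2 kb) and Bambi (9.39 kb) differed in length and in number of peaks. Ltbp1, which stores latent TGF-beta in the matrix, is 387 kb long and had 11 Slug peaks (50.4 to 415), all inside and none within 1 kb of an end. Its 7 Snail peaks scored 51.3 to 879. The 2 highest, of 328 and 879, covered its 2 start sites. Bmp1, a protease of matrix proteins despite its name, had Slug peaks of 90 and 429 and Snail peaks of 58.5 and 303. Bambi, a decoy receptor without kinase domain, had a Snail peak of 624 at its low-coordinate end and no Slug peak within 79.4 kb.

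Of the related Smad corepressors, Skil had a Slug peak and Ski none. Skil had a Slug peak of 547, the highest of the regulators, at chr3:31103732-31103965, 8.67 kb inside the gene, and 3 Snail peaks at its low-coordinate end of 59.5, 210 and 420. Ski had 5 Snail peaks, of 127, 236, 265, 302 and 485, none on its start site and the highest 0.417 kb from it. Its nearest Slug peak (189) was 17.1 kb away. Tgif1, a homeodomain corepressor of Smads, had the widest Snail peak of all members, 6427 bp with a score of 207, which covered 4 of its 5 start sites.

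The ubiquitin ligase genes Smurf1 and Smurf2, whose products degrade Smads and receptors, were alike in arrangement. Each had a Snail peak on its start, of 522 and 1166, and its highest Slug peaks deep inside. A Snail peak covered a start site in 19 of 28 members (67.9%, against 49.9% of all genes). The highest Slug peak was at an end in 4 of 32 (12.5%, against 14.2%). How often both traits occur in the same member was not counted. Smurf1 also had a Slug peak of 58.2 near its start, inside the Snail peak, and Smurf2 had no Slug peak at an end. For Smurf1 the highest Slug peaks scored 318 and 381, and for Smurf2 the highest was 345 at chr11:106882616-106882964. Smurf1 held 5 Slug and 5 Snail peaks and Smurf2 3 and 4.

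Most Slug and Snail peaks at these genes did not meet. A Slug peak overlapped a Snail peak by at least 1 bp at 8 members (20%, against 18.4% of all genes, an order that turned to 5% against 10.9% with the gene span only): Bmp6, Gdf15, Acvr1, Acvr1b, Smad5, Nog, Tgif1 and Smurf1. By peak, 10 of 98 Slug peaks (10.2%, 5.64 to 17.8) and 9 of 102 Snail peaks (8.82%, 4.71 to 15.9) overlapped. In all gene windows, a peak near several genes counting for each, 17.6% and 15.1% did. With each peak of the whole lists counted once, it was 12.1% of Slug and 16.6% of Snail peaks. Both all-window values lie inside these intervals, which cover counting error only. Of the whole-list values, that of Slug lies inside and that of Snail just above.

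The overlapping pairs differed in how they were built. At Bmp6 the Snail peak, 502 bp with a score of 167, lay wholly inside the Slug peak of 609. At Acvr1 the overlap covered 90.2% of the Slug peak (192) and 99.7% of the Snail peak (65.0), again inside Upp2. Together with the distal site of Smad5 these were the 3 pairs in which each peak covered at least 50% of the other. At Tgif1 the Slug peak of 172 lay inside a Snail peak of 173, 6.08 kb from the gene. The Slug peaks of Acvr1b (59.5, at 9.79 kb the peak nearest the 10 kb limit), Smurf1 (58.2) and Gdf15 (54.4) were weak and lay inside much wider Snail peaks of 409, 522 and 555. At Nog, 2 Slug peaks met 1 Snail peak.

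Other Slug peaks lay beside a Snail peak. A further 10 of the 98 (10.2%) at 9 members lay within 1000 bp of a Snail peak without touching it, at Tgfb1, Inhba, Bmp7, Tgfbr2, Acvr1, Smad3, Smad5, Smad7 and Bmp1. Over all gene windows 5.63% of Slug peaks did so, a peak near several genes counting for each. With a limit of 500 bp it was 7 peaks (7.14% against 3.30%), and with 2000 bp 16 (16.3% against 9.20%). At Tgfbr2, Acvr1, Smad7, Bmp7 and Bmp1, and for 1 of the 2 such Slug peaks of Smad3, the Snail peak beside it was one at a gene end.

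Other genes of the pathway that are not among the 40 were shorter, with a median of 16.8 kb, close to the 17.2 kb of all genes. Of 53 such genes, from further ligands and antagonists to Smad9 and the latency proteins, Slug was found at 37 (69.8%, against 56.4% of all genes) and Snail at 43 (81.1% against 66.9%). Both factors were found at 32 (60.4% against 44.9%) and neither at 5 (9.43% against 21.6%). The highest Slug scores were 915 inside Bmp8a, a BMP ligand gene, and 786 inside Nedd4l, a ubiquitin ligase that acts on Smads. The highest Snail scores were 1630 at the end of Strap, a receptor-binding inhibitor, and 1470 beyond Ltbp2.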

How the data were processed

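Fixation was with 1% formaldehyde (10 min) and sonication gave fragments near 200 to 500 bp, per the labels' protocols. The submitters' processing notes name Bowtie, MACS 1.4.2 and mm10. For settings and control, nothing is given in the sources used here. The deposited lists hold 41612 Slug and 28375 Snail peaks with the authors' score, whose scale the files do not state. They give no read counts, so depth is unknown, and the 2 input libraries were not used here.

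Starts were converted to 1-based positions. Peaks were joined to gene spans of the RefSeq table for GRCm38.p6, which holds no strand. Strand and start sites came from the RefSeq promoter table of the same assembly, which matched 28 members by gene ID. E-boxes were searched on both strands. A peak belonged to a gene if any base lay in the span or its 10 kb flanks. Python 3.11.15, numpy 2.4.6, pandas 2.3.3, scipy 1.17.1 and matplotlib 3.10.9 were used, and the interval code was tested on simulated data. All 40 members are described. Peak values are given mainly for the highest-scoring peaks and for members lacking a factor. The members and lists were chosen with earlier results of these data known. Alternatives covered score, window, neighbouring genes and overlap.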

Additional observations from a re-analysis of the deposited data

How the results depend on the processing

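Across 8 alternatives, 63 of 83 recomputed values stayed within 1.5 times the reported count or within its counting interval, and 20 moved. The only values with a sign, the Slug and Snail excesses of the members over all genes, kept it wherever they were recomputed. The reported counts were 32 members with Slug, 29 with both, 3 with Slug alone, 8 with Snail alone and 8 with an overlapping pair. With peaks scoring at least 100, Slug alone was found at 6 members (15%, above the 8.39% of all genes), an overlapping pair at 3 (7.50% against 6.85%), the Slug share exceeded that of all genes by 38.4 percentage points, and 53.2% of Snail peaks lay at an end. With equal numbers of peaks, 5 members had a pair (12.5% against 14.2%). With the gene span only, Snail alone was found at 13 members (32.5% against 30.2%) and a pair at 2 (5% against 10.9%), and 2.86% of Slug and 4.05% of Snail peaks overlapped. Within 10 kb of either end, leaving out gene interiors, Snail alone was found at 14 members (35% against 27.2%) and 20.8% of Slug peaks overlapped. Within 1 kb of either end, Slug was found at 9 members (22.5% against 13.0%), both at 6 (15% against 9.81%), Snail alone at 27 (67.5% against 41.5%) and a pair at 4 (10% against 7.29%). Only 10 Slug peaks remained there, of which 40% overlapped, and the Slug excess was 9.47 points (23.6 as reported). A reciprocal overlap of 50% left 3 members with a pair (7.50% against 4.39%), and 3.06% of Slug and 2.94% of Snail peaks. For the percentages of peaks in these settings, no share over all genes was computed. Against all genes, the order turned for Slug alone at the higher score and within 1 kb of an end (7.50% against 3.22%), for Snail alone in the span and both end settings, and for a pair with equal numbers of peaks and in the span. Fewer peaks or bases enter each of these. Depth and peak height are unknown, so a missing peak does not show absence of binding. No paired analysis was possible because each factor has 1 library.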

Other observations

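Textbook target genes of TGF-beta and BMP signalling, 24 genes listed apart from the members, were near Snail in 22 cases (91.7%, against 66.9% of all protein-coding genes) and near Slug in 17 (70.8% against 56.4%) by the same windows. Their median length was 5.41 kb, against 17.2 kb for all genes. The list shares Pmepa1 with the 53 other pathway genes and holds Snai1 and Snai2, the genes of the mapped factors. Both factors were found at 16 (66.7% against 44.9%), Slug alone at 1 (4.17% against 11.5%), Snail alone at 6 (25.0% against 22.1%) and neither at 1 (4.17% against 21.6%). A Slug peak overlapped a Snail peak at 7 of them (29.2% against 18.4%). The highest Slug scores were 826 inside Itgb6, the beta subunit of an integrin that activates latent TGF-beta, and 632 beside Hey1, a BMP-responsive transcription factor gene. The highest Snail scores were 1568 beyond Col1a1, a collagen gene, and 1542 inside Cdkn1a, which encodes the cell cycle inhibitor p21. The Cdkn1a peak overlapped a Slug peak.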
